A study of Mus musculus with 14 samples.

Results

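Transcripts of 10 genes of the superoxide, catalase and glutathione defence were followed in mouse oocytes before and after ovulation, with and without the mitochondrial unfoldase gene Clpx. The members are the superoxide dismutases Sod1 and Sod2, catalase (Cat), the glutathione peroxidases Gpx1 and Gpx4, the glutathione synthesis genes Gclc, Gclm and Gss, glutathione reductase (Gsr) and the transcription factor gene Nfe2l2. They were taken by gene symbol, and all 10 were listed in the count tables of both stages, of 18562 genes listed in all. The groups were 3 libraries of ovulated CKO oocytes, 3 of ovulated WT oocytes, 4 of germinal vesicle (GV) CKO oocytes and 4 of GV WT oocytes. CKO oocytes came from Clpxfl/fl; Zp3-Cre mice and WT oocytes from Clpxfl/fl mice, by the genotype labels. The titles of the 3 ovulated WT samples read Clpxfl/f, which is taken here as Clpxfl/fl, as their genotype labels have it. By these labels all 4 groups carry the floxed allele and only CKO mice carry Cre, so the transgene and the loss of Clpx cannot be told apart. The Zp3 promoter drives Cre in growing oocytes, so the deletion is made there and not in the surrounding follicle cells. The labels call the delivered samples single cells and do not say how many oocytes or animals a library holds, nor the age of the mice. Each library is 1 replicate, and the p-values measure the spread between libraries, which may be technical in part.

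CLPX unfolds proteins for a protease of the mitochondrial matrix, and mitochondria are the main source of superoxide in most cells. Superoxide dismutases turn superoxide into hydrogen peroxide, which catalase and the peroxidases remove, the peroxidases at the expense of glutathione. Glutathione is made by glutamate-cysteine ligase and glutathione synthetase and is recycled by glutathione reductase with NADPH. Many of these genes are targets of NRF2, the product of Nfe2l2, which KEAP1 marks for degradation and which binds antioxidant response elements. Fully grown oocytes are largely silent in transcription, and during meiotic maturation stored transcripts are translated or degraded according to signals at their 3′ ends. Levels below are shares of a library's RNA, so fewer molecules per oocyte and more of other RNA cannot be told apart.

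The promoters of the members are shown where they hold the core of the antioxidant response element, TGACNNNGC, searched on both strands from 250 bases before to 50 bases after each start site. RefSeq sequences (GRCm38.p6) were at hand for 8 members with 11 promoters, and Gclc and Gsr had none. Sod1, Gclm and Nfe2l2 held a match in 1 promoter each, 56, 134 and 240 bases before the start site. The same core was found in 15.59% of the 14725 genes with a promoter in the table and in 13.4% of its 18318 promoters. The windows of 60 bases around the matches lie at chr16:90220681-90220740 (plus strand) for Sod1, chr3:122245398-122245457 (plus strand) for Gclm and chr2:75704854-75704913 (minus strand) for Nfe2l2. They are printed 5′ to 3′ on the strand of the gene, with the match in capitals, which reads TGACNNNGC on the opposite strand for Sod1 and Gclm.
Sod1: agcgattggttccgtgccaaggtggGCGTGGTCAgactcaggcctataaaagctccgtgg
Gclm: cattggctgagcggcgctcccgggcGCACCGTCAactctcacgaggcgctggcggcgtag
Nfe2l2: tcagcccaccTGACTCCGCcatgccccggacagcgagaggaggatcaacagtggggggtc

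The 3′ ends are shown for the cytoplasmic polyadenylation element, TTTTAT or TTTTAAT, a signal through which stored transcripts are activated in maturing oocytes. It was searched in the last 100 bases of the GENCODE M21 transcript (GRCm38) of the 9 members whose 3′ untranslated region has that length, which leaves out Sod1. Gsr and Nfe2l2 held TTTTAT, 67 and 75 bases before the annotated end, at chr8:33698085-33698114 (plus strand) and chr2:75675570-75675599 (minus strand). These 2 of 9 members are 22.22%, beside 19.52% of 11768 genes tested in both stages. Among all genes, the element was in 28.51% of 3637 genes higher in ovulated than in GV WT oocytes and in 10.83% of 3851 genes lower there. The polyadenylation signal AATAAA stands in the last 40 bases of the Nfe2l2 transcript and not in those of the Gsr transcript, and the ends used in oocytes were not measured. A match describes the letters of the window and is not evidence that the site is used. The capitals mark the element.
Gsr: ttttgttttgttTTTTATgaaaactgttcc
Nfe2l2: aggaaatgacatTTTTATattaaattgttt

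The libraries held 25086506 to 28471453 counts each. Clpx itself, the targeted gene, averaged 0.437 ± 0.155 CPM in ovulated CKO against 18.2 ± 1.07 CPM in ovulated WT oocytes (SD, n = 3 each), and 1.10 ± 0.358 CPM in GV CKO against 44.3 ± 9.21 CPM in GV WT oocytes (SD, n = 4 each). CPM are counts scaled to a common library total after edgeR's TMM scaling of all 14 libraries together. All 14 oocyte markers, such as the zona pellucida genes, were listed at both stages. Their summed level was 15130 to 19270 CPM in ovulated CKO, 15390 to 20190 CPM in ovulated WT, 21320 to 48140 CPM in GV CKO and 24070 to 36790 CPM in GV WT libraries, each scaled within its stage. Markers of granulosa and cumulus cells summed to 79.03 to 138.7 CPM in ovulated CKO and 82.04 to 156.7 CPM in ovulated WT libraries, and to 41.79 to 63.69 CPM in GV CKO and 54.75 to 68.4 CPM in GV WT libraries. Of these 17 markers 15 were listed at each stage, and most of the sum came from Cyp19a1. In ovulated libraries Nr5a2 stood at 12.27 to 21.79 CPM, Kitl at 5.352 to 12.5 CPM and the cumulus gene Tnfaip6 at 0 to 14.65 CPM. Has2, Fshr, Lhcgr, Ptx3 and Amhr2 reached no more than 0.5553 CPM there. Foxl2, which defines granulosa cells, reached no more than 0.0427 CPM in GV libraries and was not among the genes listed for ovulated oocytes. Markers of theca, stroma, endothelium and blood, 8 of 13 listed in ovulated and 13 in GV oocytes, summed to 65.18 to 101.6 CPM in ovulated CKO, 64.49 to 141.4 CPM in ovulated WT, 17.92 to 36.09 CPM in GV CKO and 27.79 to 40.45 CPM in GV WT libraries, mostly from Pecam1. All these marker levels were scaled within their stage, so their sizes are not compared between the stages. The part of such cells in the stage differences below was not tested. Ovulated CKO replicate 3 stood apart in the genotype comparison of ovulated oocytes, where the count of changed genes was 1 with it and 201 without it. Values without it are therefore given below for each named gene whose call it changes. Counts within single gene lists are given with all libraries only.

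Per length, Sod1 was by far the most abundant member in every group. The authors' FPKM for Sod1 averaged 623 ± 522 in ovulated CKO and 193 ± 97.3 in ovulated WT oocytes (SD, n = 3 each), and 1792 ± 252 in GV CKO and 1540 ± 237 in GV WT oocytes (SD, n = 4 each). Among the genes listed for its stage it ranked between 65 and 712 in ovulated CKO, 305 and 864 in ovulated WT, 42 and 69 in GV CKO and 54 and 67 in GV WT libraries. Its share of the summed FPKM of the 10 members was 66.8% to 93.7% in ovulated CKO, 67.8% to 76.4% in ovulated WT, 92.3% to 95.6% in GV CKO and 88.5% to 95.2% in GV WT libraries.

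Behind Sod1 the order of the members differed between the stages. In GV oocytes Gpx4 was second, with 72.4 ± 24.2 FPKM in GV CKO and 91.4 ± 23.2 FPKM in GV WT libraries, and its range stood apart from both neighbours in the order. In ovulated oocytes Gpx4 was seventh, with 4.91 ± 3.32 FPKM in CKO and 4.50 ± 2.83 FPKM in WT libraries. Gpx1, Sod2, Gclm and Nfe2l2 followed in GV oocytes at group means of 6.13 to 17.7 FPKM, and each overlapped its neighbour among the 4. In ovulated oocytes the same 4 genes held the places behind Sod1, at group means of 10.8 to 21.8 FPKM, overlapping except for Sod2 and Nfe2l2 in CKO. Gclc, Gss, Gsr and Cat lay below 2 FPKM on average in GV oocytes. In ovulated oocytes Gclc stood at 5.41 ± 0.526 FPKM in CKO and 4.69 ± 1.86 FPKM in WT libraries, while Cat and Gss were the 2 lowest members, both below 1 FPKM and overlapping each other.

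The comparison of stages asked how the defence transcripts differ between ovulated and GV oocytes in each genotype. Sod1, Gpx4 and Gss fell and Gclc rose in ovulated oocytes of both genotypes, and Gpx1 fell in WT oocytes. Falls and rises here are of a transcript's share of a library. The length of poly(A) tails was not measured, and its part in these differences was not tested. Gpx4, the peroxidase that reduces lipid hydroperoxides in membranes, changed most, 21.6-fold lower in CKO and 24.3-fold lower in WT oocytes. In CKO oocytes 4 of 10 members passed an edgeR adjusted p of 0.05, 1 higher and 3 lower, where 55.7% of the 13158 genes tested passed, 25.8% higher and 29.9% lower. In WT oocytes 5 of 10 passed, 1 higher and 4 lower, where 63.7% of all genes tested passed, 29.7% higher and 34% lower. These shares of members are near the background. Separation of all ovulated from all GV libraries of a genotype, given for members below, was shown by 58.6% of all genes tested in CKO. In WT it was shown by 62.3%. The median log2 fold change of the members was −0.30 in CKO, beside −0.14 over all genes tested, and 0.34 in WT, beside −0.08. With libraries scaled to their totals instead, the median over all genes was 0.45 in CKO and 0.26 in WT, and 4688 genes were higher and 2257 lower in CKO, against 3397 and 3935 under TMM scaling, and 4471 higher and 3515 lower in WT, against 3904 and 4472. The calls of Sod1, Gpx4, Gss and Gclc held in each of 21 alternatives of either comparison.

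**Figure D1:**
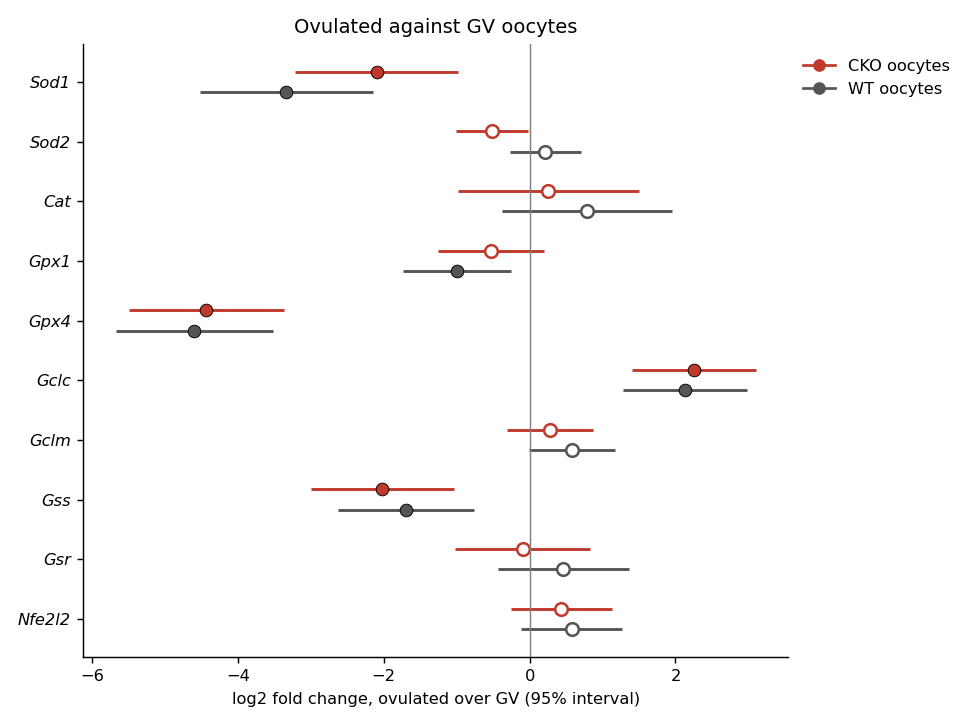
Log2 fold change of each member in ovulated over GV oocytes, with 95% intervals, for CKO (upper) and WT oocytes (lower of each pair). Filled points passed an edgeR adjusted p of 0.05 and open points did not. Gpx4 lies farthest to the left in both genotypes, at −4.43 in CKO and −4.60 in WT, and Gclc farthest to the right, at 2.25 and 2.13.

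Sod1 (gene ID 20655, chr16:90220762-90226333 on mm10) encodes the copper and zinc dismutase of the cytosol and the mitochondrial intermembrane space. It had 384, 177 and 44.4 CPM in ovulated CKO libraries 1 to 3 and 37.2, 90.9 and 72.9 CPM in ovulated WT libraries 1 to 3. In GV oocytes it had 928, 968, 710 and 854 CPM in CKO libraries 1 to 4 and 470, 683, 533 and 1019 CPM in WT libraries 1 to 4. Every ovulated library lay below every GV library, and relative to the mean the ovulated CKO libraries spread most. With CPM scaled within each stage, their coefficient of variation was 82.0%, against 41.6% in ovulated WT, 12.2% in GV CKO and 35.1% in GV WT libraries. Sod1 fell 4.29-fold in ovulated over GV CKO oocytes (log2 fold change −2.10, SE 0.527, edgeR adjusted p = 0.00302) and 10.1-fold in WT oocytes (−3.33, SE 0.561, edgeR adjusted p = 8.74e-05). In CKO oocytes the value was −2.95 without ovulated CKO replicate 1 (edgeR adjusted p = 0.000502), −1.64 without replicate 3 (edgeR adjusted p = 0.00518) and −1.46 under scaling to total counts (edgeR adjusted p = 0.0194). Sod1 overlaps Scaf4 on the opposite strand, and the sources used here do not say whether counting used strand, so reads of the shared stretch cannot be told apart.

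Sod2 (gene ID 20656, chr17:13007839-13018119) encodes the manganese dismutase of the mitochondrial matrix, the compartment of CLPX. It had 36.5, 34.6 and 44.0 CPM in the ovulated CKO libraries and 35.9, 58.3 and 69.5 CPM in the ovulated WT libraries. The GV CKO libraries had 57.1, 47.6, 53.9 and 60.7 CPM and the GV WT libraries 46.2, 49.8, 42.9 and 48.9 CPM. All ovulated CKO libraries lay below all GV CKO libraries, while the WT stages overlapped. Neither genotype passed, with a change of −0.51 on the log2 scale in CKO (edgeR adjusted p = 0.0688, 95% interval −1.01 to −0.02) and 0.22 in WT oocytes (edgeR adjusted p = 0.417, interval −0.27 to 0.70). Its estimated counts were fractional in 3 of 6 ovulated and 5 of 8 GV libraries, unlike those of the other 9 members, so some of its reads may be shared with other loci.

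Cat (gene ID 12359, chr2:103453904-103485153) encodes the peroxisomal enzyme that splits hydrogen peroxide, and its transcript was scarce, with 5 to 51 counts in a library. The ovulated CKO libraries had 0.775, 0.493 and 0.337 CPM and the ovulated WT libraries 1.81, 1.34 and 1.52 CPM. In GV oocytes Cat had 0.338, 0.248, 0.845 and 0.332 CPM in the CKO libraries and, in the WT libraries, 0.428, 1.49, 0.559 and 1.16 CPM. The stages overlapped in both genotypes. The log2 fold change of ovulated over GV oocytes was 0.26 in CKO (edgeR adjusted p = 0.725) and 0.79 in WT (edgeR adjusted p = 0.223).

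Gpx1 (gene ID 14775, chr9:108339080-108340342) encodes the main glutathione peroxidase of the cytosol, a selenoprotein that is also found in mitochondria. It had 10.6, 9.40 and 7.00 CPM in the ovulated CKO libraries, against 9.09, 11.2, 20.4 and 11.2 CPM in the GV CKO libraries, and these overlapped. The ovulated WT libraries had 3.90, 9.04 and 9.23 CPM and lay below the GV WT libraries with 15.4, 15.7, 16.8 and 11.2 CPM. Gpx1 fell 2.00-fold in ovulated over GV WT oocytes (log2 fold change −0.998, SE 0.349, edgeR adjusted p = 0.0197), and under scaling to total counts this did not pass (−0.64, edgeR adjusted p = 0.239). It also did not pass without ovulated WT replicate 1 (−0.68, edgeR adjusted p = 0.106) or without GV WT replicate 2 (−0.90, edgeR adjusted p = 0.0546). In CKO oocytes the log2 fold change was −0.53 (edgeR adjusted p = 0.202).

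Gpx4 (gene ID 625249, chr10:80047166-80056439), whose product protects against the lipid peroxidation of ferroptosis, showed the clearest gap between stages. It had 3.88, 1.84 and 0.976 CPM in the ovulated CKO libraries and 0.709, 2.54 and 3.38 CPM in the ovulated WT libraries. The GV CKO libraries had 61.2, 36.9, 47.6 and 47.3 CPM and the GV WT libraries 56.5, 58.7, 53.3 and 46.7 CPM. The ovulated genotypes overlapped each other, and so did the GV genotypes. The log2 fold change of ovulated over GV oocytes was −4.43 in CKO (SE 0.506, edgeR adjusted p = 7.05e-06) and −4.60 in WT (SE 0.510, edgeR adjusted p = 2.53e-06). In CKO it was −5.07 without ovulated CKO replicate 1 and −3.84 under total counts, and both passed. By the 95% intervals, the ovulated level was 0.0221 to 0.0971 times the GV level in CKO and 0.0195 to 0.0870 times the GV level in WT oocytes.

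**Figure D2:**
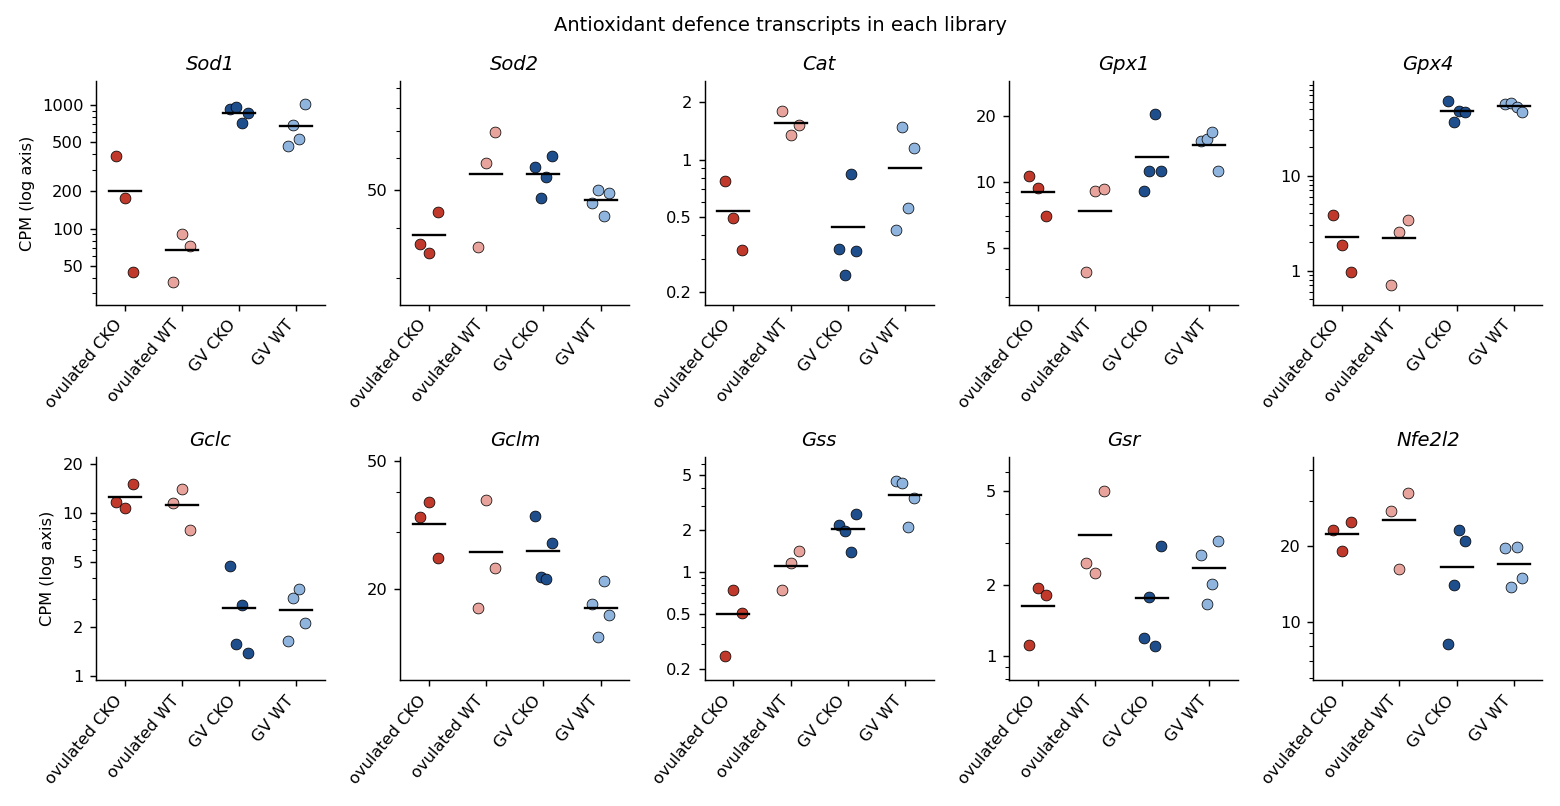
Level of each member in every library, in CPM on a log axis that differs between panels, by group, with replicate 1 leftmost. Points are libraries and bars are group means. Every ovulated library lies below every GV library for Sod1 and Gpx4 and above it for Gclc. Within a genotype, 58.6% of all genes tested in CKO and 62.3% in WT separated the stages in either direction.

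Among the genes of glutathione synthesis, Gclc rose, Gss fell and Gclm did not pass. Gclc (gene ID 14629, chr9:77754535-77794489) encodes the catalytic subunit of glutamate-cysteine ligase, the rate-limiting enzyme. It had 11.7, 10.7 and 15.2 CPM in the ovulated CKO libraries and 11.5, 14.2 and 7.91 CPM in the ovulated WT libraries. In the GV CKO libraries it had 4.73, 1.58, 2.76 and 1.38 CPM and in the GV WT libraries 1.65, 3.02, 3.46 and 2.11 CPM. Every ovulated library exceeded every GV library. Gclc rose 4.77-fold in ovulated over GV CKO oocytes (log2 fold change 2.25, SE 0.405, edgeR adjusted p = 0.00023) and 4.37-fold in WT oocytes (2.13, SE 0.403, edgeR adjusted p = 0.000251).

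Gclm (gene ID 14630, chr3:122245487-122267215) encodes the modifier subunit of the same ligase, which raises the activity of the catalytic one. It had 33.4, 37.2 and 25.04 CPM in the ovulated CKO libraries and 17.5, 37.7 and 23.3 CPM in the ovulated WT libraries. The GV CKO libraries had 33.7, 21.8, 21.6 and 27.9 CPM and the GV WT libraries 18.03, 14.3, 21.2 and 16.7 CPM. Stages overlapped in both genotypes. The log2 fold change of ovulated over GV oocytes was 0.28 in CKO (edgeR adjusted p = 0.403) and 0.58 in WT (edgeR adjusted p = 0.081). Gclm overlaps the pseudogene Gm6061 on the same strand and Gm17494 on the opposite strand. Neither was among the genes listed, and reads of the shared stretches cannot be told apart.

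Gss (gene ID 14854, chr2:155563181-155592810) encodes glutathione synthetase, which adds glycine in the last step, and was among the scarcest members, with 8 to 137 counts in a library. The ovulated CKO libraries had 0.248, 0.740 and 0.505 CPM, below all GV CKO libraries with 2.20, 1.98, 1.396 and 2.60 CPM. The ovulated WT libraries had 0.744, 1.17 and 1.42 CPM, below all GV WT libraries with 4.51, 4.35, 2.11 and 3.42 CPM. Gss fell 4.05-fold in CKO (log2 fold change −2.02, SE 0.462, edgeR adjusted p = 0.00154) and 3.22-fold in WT oocytes (−1.69, SE 0.442, edgeR adjusted p = 0.00323). Under total counts the value in CKO was −1.37 and passed. Acss2 overlaps it on the opposite strand, with the same limit on telling reads apart as for Sod1.

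Gsr (gene ID 14782, chr8:33653238-33698162) encodes the NADPH-dependent reductase that restores glutathione. It had 1.12, 1.95 and 1.82 CPM in the ovulated CKO libraries and 2.48, 2.25 and 4.97 CPM in the ovulated WT libraries. The GV CKO libraries had 1.18, 1.78, 1.10 and 2.93 CPM and the GV WT libraries 2.67, 1.66, 2.01 and 3.07 CPM. Stages overlapped in both genotypes. The log2 fold change of ovulated over GV oocytes was −0.09 in CKO (edgeR adjusted p = 0.868, 95% interval −1.02 to 0.83) and 0.46 in WT (edgeR adjusted p = 0.355, interval −0.44 to 1.36).

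Nfe2l2 (gene ID 18024, chr2:75675513-75704663), the gene of NRF2, had 23.0, 19.0 and 24.9 CPM in the ovulated CKO libraries and 27.5, 16.3 and 32.4 CPM in the ovulated WT libraries. In the GV CKO libraries it stood at 8.16, 14.1, 23.1 and 20.9 CPM and in the GV WT libraries 19.6, 13.8, 19.8 and 14.9 CPM. Both stages overlapped in each genotype. The log2 fold change was 0.43 in CKO (edgeR adjusted p = 0.273, 95% interval −0.26 to 1.13) and 0.58 in WT oocytes (edgeR adjusted p = 0.133, interval −0.11 to 1.27).

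Ratios of related members within a library, which do not depend on library scaling, were chosen after their values were seen and are given without a test. Gpx4 per Gpx1, in FPKM, was 0.196 to 0.524 in ovulated CKO, 0.254 to 0.511 in ovulated WT, 3.35 to 9.69 in GV CKO and 4.56 to 5.94 in GV WT libraries, so Gpx4 exceeded Gpx1 in all 8 GV libraries and was below it in all 6 ovulated ones. Sod1 per Sod2 was 8.80 to 91.9 in ovulated CKO, 8.67 to 13.2 in ovulated WT, 119 to 184 in GV CKO and 94.7 to 189 in GV WT libraries. Ovulated CKO libraries 1 and 2, at 91.9 and 44.7, lay between the ovulated WT and the GV libraries, and library 3, at 8.80, lay within the ovulated WT range. Gclc per Gclm was 0.186 to 0.393 in ovulated CKO, 0.220 to 0.418 in ovulated WT, 0.0319 to 0.0900 in GV CKO and 0.0573 to 0.134 in GV WT libraries. The modifier subunit's transcript thus exceeded that of the catalytic subunit in every library, by less in ovulated oocytes.

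**Figure D3:**
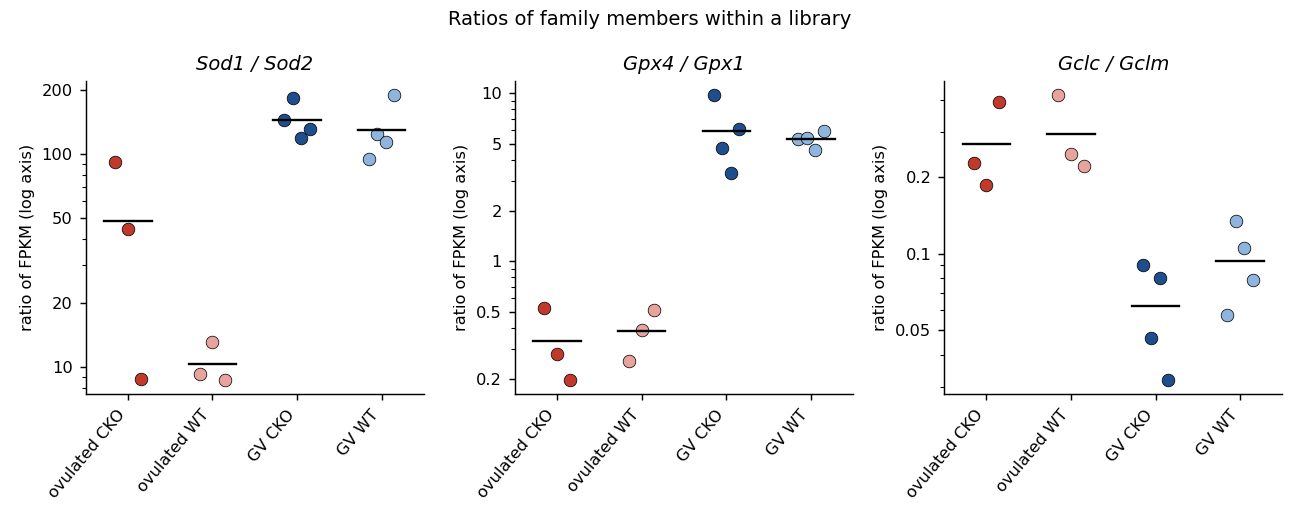
Ratio of the FPKM of 2 related members within each library, on a log axis, for Sod1 over Sod2, Gpx4 over Gpx1 and Gclc over Gclm. Points are libraries and bars are group means. Gpx4 per Gpx1 lies above 3 in all GV libraries and below 0.6 in all ovulated libraries.

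The next comparison asked what the loss of Clpx changed in GV oocytes. No member passed. The count of 0 members called stood beside 3 of 12265 genes called by edgeR (0.0245%), and 2 members and 704 genes (5.74%) had an unadjusted p under 0.05. DESeq2 and limma-voom also called 0 members. The median log2 fold change of CKO over WT was −0.10 for the members and 0.02 for all genes tested, with 4 members higher and 6 lower.

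The 2 members with an unadjusted p under 0.05 were genes of glutathione synthesis with opposite signs. Gclm had a log2 fold change of 0.57 (SE 0.212, unadjusted p 0.0202, edgeR adjusted p = 0.834, 95% interval 0.11 to 1.03), and its CKO libraries at 21.6 to 33.7 CPM lay above its WT libraries at 14.3 to 21.2 CPM. Under TMM scaling Gclm was the 1 member whose GV genotypes did not overlap, as was the case for 3.82% of all genes tested. In the authors' FPKM the genotypes of Gclm overlapped, at 8.6 to 16.33 in CKO and 6.55 to 13.05 in WT libraries. Those of Gss did not overlap in FPKM, at 0.86 to 1.13 in CKO and 1.38 to 2.81 in WT libraries. The share of all genes whose genotypes separate in FPKM was not computed. Gss had −0.82 (SE 0.316, unadjusted p 0.0231, edgeR adjusted p = 0.834, interval −1.51 to −0.13), with CKO libraries at 1.396 to 2.60 CPM and WT libraries at 2.11 to 4.51 CPM. The catalytic subunit Gclc had 0.02 (edgeR adjusted p = 0.994, interval −0.84 to 0.88).

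The dismutases had log2 fold changes of 0.35 for Sod1 (edgeR adjusted p = 0.856, interval −0.21 to 0.92) and 0.22 for Sod2 (edgeR adjusted p = 0.853, interval −0.12 to 0.56). For Cat it was −0.97 (edgeR adjusted p = 0.834, interval −2.10 to 0.16), a wide interval for a gene with 5 to 35 counts in GV libraries. Gpx1 had −0.19 (interval −0.78 to 0.41), Gpx4 −0.17 (interval −0.56 to 0.22), Gsr −0.44 (interval −1.25 to 0.38) and Nfe2l2 −0.04 (interval −0.72 to 0.64), with edgeR adjusted p from 0.866 to 0.984. By its interval, the level of Gpx4 in GV CKO oocytes was 0.679 to 1.17 times that in GV WT oocytes, and that of Sod2 was 0.921 to 1.47 times it.

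The same question in ovulated oocytes found no member past the threshold with all 6 libraries, and Sod1 alone without ovulated CKO replicate 3. With all libraries 0 members were called, beside 1 of 12044 genes (0.0083%), and 2 members and 935 genes (7.76%) had an unadjusted p under 0.05. DESeq2 and limma-voom called 0 members as well. Without ovulated CKO replicate 3 edgeR called 1 member, where 1.6% of 12576 genes passed. The median log2 fold change of CKO over WT was −0.11 for the members and near 0 for all genes tested, with 4 members higher and 6 lower.

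Sod1 averaged 202 ± 171 CPM in ovulated CKO and 67.0 ± 27.3 CPM in ovulated WT oocytes (SD, n = 3 each). Libraries 1 and 2 of CKO exceeded all WT libraries, and CKO library 3, at 44.4 CPM, lay within the WT range. The log2 fold change was 1.53 (SE 0.597, unadjusted p 0.0262, edgeR adjusted p = 0.599, 95% interval 0.22 to 2.85). Without ovulated CKO replicate 3 it was 1.96 (edgeR adjusted p = 0.0485), and over 13 alternatives the value ranged from 0.72 to 1.96 with adjusted p from 0.0485 to 0.9997. Cat was the other member with an unadjusted p under 0.05. It averaged 0.535 ± 0.222 CPM in ovulated CKO and 1.56 ± 0.234 CPM in ovulated WT oocytes (SD, n = 3 each), a log2 fold change of −1.56 (SE 0.645, unadjusted p 0.034, edgeR adjusted p = 0.615, interval −2.98 to −0.14), with 10 to 25 counts in the CKO and 45 to 51 counts in the WT libraries.

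Under TMM scaling, Cat, Gss and Gsr were the 3 members whose ovulated CKO libraries all lay below the WT libraries. Such a separation was shown by 10.4% of all genes tested, in 1 direction or the other. In the authors' FPKM, where the share of all genes was not computed, Cat stayed separate, at 0.16 to 0.42 in CKO and 0.75 to 0.81 in WT libraries. Gss overlapped there, at 0.18 to 0.6 and 0.46 to 0.93, and so did Gsr, at 0.57 to 1.08 and 1.05 to 2.33. Gss differed by −1.16 on the log2 scale (edgeR adjusted p = 0.737, interval −2.77 to 0.45), and its highest CKO library at 0.740 CPM nearly met its lowest WT library at 0.744 CPM. Gsr had −0.99 (edgeR adjusted p = 0.705, interval −2.17 to 0.18), with 1.12 to 1.95 CPM in CKO and 2.25 to 4.97 CPM in WT libraries. Sod2 had −0.52 (interval −1.21 to 0.17), Gpx1 0.26 (interval −0.66 to 1.17), Gclc 0.15 (interval −0.65 to 0.95), Gclm 0.26 (interval −0.49 to 1.01) and Nfe2l2 −0.19 (interval −0.92 to 0.53), with edgeR adjusted p from 0.721 to 0.924. For Gpx4 the log2 fold change was −0.03 (edgeR adjusted p = 0.992), but its interval of −1.53 to 1.46 spans 0.348 to 2.75 times the WT level.

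**Figure D4:**
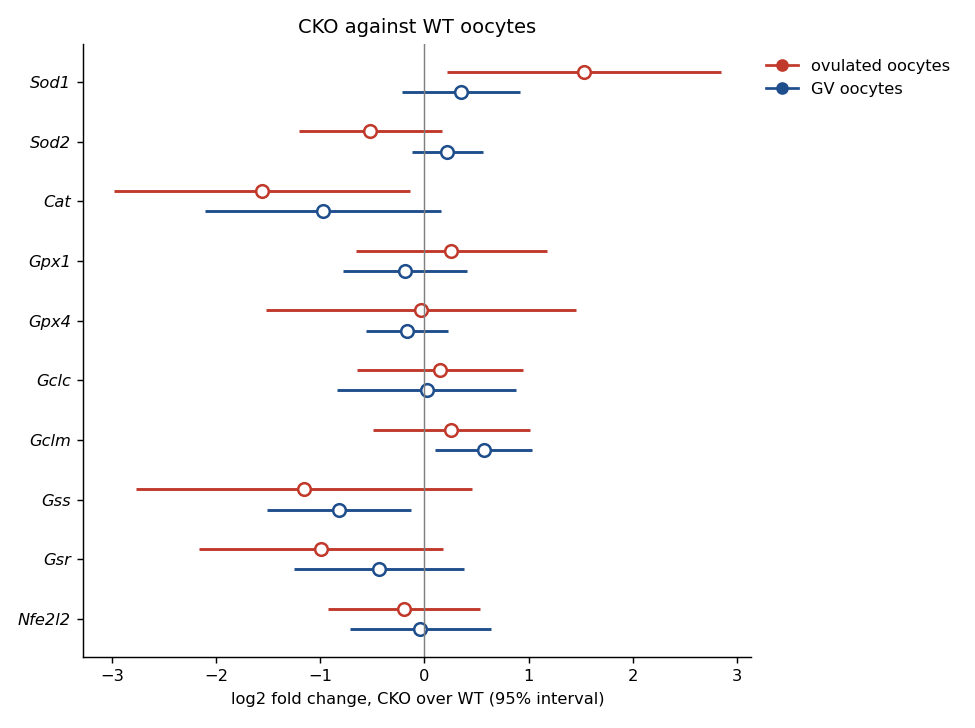
Log2 fold change of each member in CKO over WT oocytes, with 95% intervals, for ovulated (upper) and GV oocytes (lower of each pair), all libraries included. All points are open because none passed an edgeR adjusted p of 0.05. The intervals of Sod1 and Cat in ovulated oocytes and of Gclm and Gss in GV oocytes leave out 0.

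Whether the CKO effect differed between the stages was tested by the contrast of the CKO effect in ovulated oocytes minus that in GV oocytes. No member passed, beside 1 of 13158 genes called by edgeR (0.0076%), and 1 member and 1205 genes (9.16%) had an unadjusted p under 0.05. DESeq2 and limma-voom called 0 members. That member was Sod2, with −0.73 on the log2 scale (SE 0.325, unadjusted p 0.038, edgeR adjusted p = 0.516, interval −1.42 to −0.05). Its CKO mean was the lower one in ovulated oocytes, 38.4 ± 4.94 CPM in CKO against 54.6 ± 17.1 CPM in WT (SD, n = 3 each), and the higher one in GV oocytes, 54.8 ± 5.54 CPM in CKO against 47.0 ± 3.11 CPM in WT (SD, n = 4 each). Sod1 had 1.24 (SE 0.698, edgeR adjusted p = 0.627, interval −0.24 to 2.71), and without ovulated CKO replicate 3 it had 1.68 (edgeR adjusted p = 0.0977). The other 8 members lay between −0.55 for Gsr and 0.47 for Gpx1, with edgeR adjusted p of at least 0.857. The median of the members was −0.22 and that of all genes 0.00.

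The members were set beside 104 other genes of the pathway in 8 lists: KEAP1-NRF2 regulators, NRF2 target genes, glutathione transferases, other superoxide dismutases and glutathione peroxidases, glutathione turnover and transport, glyoxalase and glutaredoxin genes, cofactor supply, and NADPH-producing enzymes. A few genes stand in 2 lists. Between the stages, 84 of these genes were tested. Of them 15 rose and 37 fell in ovulated over GV CKO oocytes, and 20 rose and 35 fell in WT oocytes, where 25.8% of all genes tested rose and 29.9% fell in CKO, and 29.7% rose and 34% fell in WT. Under scaling to total counts 24 were higher and 22 lower in CKO, and 23 higher and 29 lower in WT. Without ovulated CKO replicate 3, 11 of 88 tested rose and 34 fell in CKO, where 2876 of all 13521 genes tested rose and 3486 fell. The counts by list below include that library, and some of them change without it. Changes named below are log2 fold changes of ovulated over GV oocytes that passed the edgeR test, and in every alternative run, unless said otherwise.

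Among 11 KEAP1-NRF2 regulators, 4 rose and 3 fell in CKO and 6 rose and 3 fell in WT oocytes, with medians of 0.38 and 1.07. Under total counts 6 rose and 1 fell in CKO, with a median of 0.93, and 6 rose and 3 fell in WT. Btrc, a substrate receptor of the ubiquitin ligase that can also target NRF2, fell, with log2 fold changes of −2.59 in CKO and −3.55 in WT (edgeR adjusted p = 1.74e-05 and 1.16e-06). Mafg, a partner of NRF2 on DNA, rose by 1.85 in CKO and 1.81 in WT, and Nfe2l1, a relative of NRF2, by 1.87 and 1.64. Keap1 rose by 1.14 in CKO and 1.83 in WT (edgeR adjusted p = 0.0186 and 0.000607), and Sqstm1, whose product binds KEAP1, fell, at −1.31 and −1.52 (edgeR adjusted p = 0.0141 and 0.00516). In CKO, Keap1 did not pass without ovulated CKO replicate 1 or 2 (edgeR adjusted p = 0.0598 and 0.0556). Sqstm1 did not pass in CKO under total counts (−0.62, edgeR adjusted p = 0.234), with the replicate block (−0.98, adjusted p = 0.0636), without GV CKO replicate 4 (−0.66, adjusted p = 0.141) or without ovulated CKO replicate 1 (−1.19, adjusted p = 0.0566). Among 17 tested NRF2 target genes, 5 rose and 6 fell in CKO and 5 rose and 7 fell in WT oocytes, with medians of −0.77 and −1.26. Under total counts 5 rose and 4 fell in CKO, with a median of −0.06, and 5 rose and 6 fell in WT, with a median of −0.90. G6pdx, the glucose-6-phosphate dehydrogenase of the pentose phosphate pathway, averaged 44.0 ± 5.84 CPM in ovulated CKO, 54.6 ± 24.2 CPM in ovulated WT, 1022 ± 420.1 CPM in GV CKO and 1057 ± 338 CPM in GV WT oocytes, log2 fold changes of −4.54 in CKO and −4.27 in WT. Osgin1 fell too, at −3.19 in CKO and −3.32 in WT, while Txnrd1, cytosolic thioredoxin reductase, rose by 1.08 in CKO and 0.74 in WT and Nqo1, a quinone reductase, by 0.90 and 1.80. Nqo1 did not pass in CKO without ovulated CKO replicate 3 (0.61, edgeR adjusted p = 0.123), nor Txnrd1 in WT without ovulated WT replicate 1 (0.62, edgeR adjusted p = 0.0531).

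Glutathione transferases, which conjugate glutathione to other molecules, fell more often than they rose. Of 17 tested, 2 rose and 11 fell in CKO and 2 rose and 9 fell in WT oocytes, with medians of −1.71 and −1.58. Under total counts 2 rose and 7 fell in each genotype. Gstt2 averaged 2.39 ± 1.52 CPM in ovulated CKO against 40.5 ± 9.83 CPM in GV CKO oocytes, and 0.696 ± 0.497 CPM in ovulated WT against 41.0 ± 7.70 CPM in GV WT oocytes, log2 fold changes of −4.08 in CKO and −5.85 in WT. Lower as well were Gstm6, at −2.93 in CKO and −4.92 in WT, Gsta4, at −2.95 and −3.25, and Gstk1, the mitochondrial and peroxisomal transferase, at −1.70 and −3.70. In CKO, Gstk1 did not pass under total counts (−1.10, edgeR adjusted p = 0.0603). Mgst3, a microsomal family member, rose by 1.52 in CKO and 1.79 in WT.

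Glyoxalase and glutaredoxin genes showed no rise at either scaling. Of the 8 genes, 7 fell in CKO and 6 in WT oocytes, with medians of −2.70 and −3.27. Under total counts 6 fell in each genotype, with medians of −2.07 and −2.85. Glrx, the cytosolic glutaredoxin that uses glutathione to reduce disulfides, averaged 162 ± 63.7 CPM in ovulated CKO, 140 ± 36.3 CPM in ovulated WT, 1767 ± 380 CPM in GV CKO and 1399 ± 457 CPM in GV WT oocytes, log2 fold changes of −3.45 in CKO and −3.32 in WT. Glrx3, which handles iron-sulfur clusters, stood at −3.29 in CKO and −3.21 in WT, Esd, an esterase of the glutathione-dependent formaldehyde pathway, at −3.11 and −3.94, Glo1, the glyoxalase that uses glutathione, at −1.86 and −2.16, and Glrx5, the mitochondrial glutaredoxin, at −2.29 and −3.52.

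In glutathione turnover and transport, 2 of 12 tested genes rose and 3 fell in CKO and 5 rose and 3 fell in WT oocytes, with medians of −0.03 and 0.14. Under total counts 5 rose and 1 fell in CKO, with a median of 0.59, and 6 rose and 2 fell in WT. Ggt1, which breaks down glutathione outside the cell, fell, at −4.10 in CKO and −4.91 in WT. Slc7a11, the cystine importer subunit that feeds glutathione synthesis, rose by 0.87 in CKO and 0.75 in WT (edgeR adjusted p = 0.0213 and 0.0386) and the exporter gene Abcc1 by 1.11 and 0.75 (edgeR adjusted p = 0.00631 and 0.0429). These calls changed when single libraries were left out. In CKO, Slc7a11 did not pass without ovulated CKO replicate 3 (0.77, edgeR adjusted p = 0.0685) or without GV CKO replicate 3 (0.82, adjusted p = 0.0512), nor Abcc1 without ovulated CKO replicate 2 (0.72, adjusted p = 0.0697). In WT, Slc7a11 passed in 14 and Abcc1 in 15 of 21 alternatives, with adjusted p of up to 0.183 and 0.182, both without ovulated WT replicate 1. They also did not pass without ovulated WT replicate 2, GV WT replicate 1 or GV WT replicate 4, nor with the replicate block, and further losses were Slc7a11 in limma-voom (adjusted p = 0.0579) and with WT libraries alone (0.0517) and Abcc1 without GV WT replicate 2 (0.0597). The peptidase gene Cndp2 fell in CKO (−2.72, edgeR adjusted p = 0.0172), but not without ovulated CKO replicate 3 (−2.21, adjusted p = 0.0615) or under total counts (−2.07, adjusted p = 0.0755), and it did not pass in WT (−1.78, edgeR adjusted p = 0.0841). Cndp2 was scarce, at 0.0675 ± 0.0591 CPM in ovulated CKO and 0.486 ± 0.135 CPM in GV CKO oocytes. In WT, the intracellular glutathione-degrading genes Chac1 and Chac2 went opposite ways, with Chac1 lower at −4.00 and Chac2 higher at 1.502, and Ggct rose by 1.11. In CKO these 3 did not pass, at −1.54 for Chac1, 0.99 for Chac2 and −0.03 for Ggct (edgeR adjusted p = 0.0528, 0.0553 and 0.937). Chac1 averaged 0.188 ± 0.277 CPM in ovulated WT, with its lowest library at 0, against 3.07 ± 1.02 CPM in GV WT oocytes.

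The cofactor list holds genes for copper delivery, selenocysteine and peroxisomal import, on which SOD1, the peroxidases and catalase depend. Of its 13 genes 4 rose and 5 fell in CKO and 4 rose and 6 fell in WT oocytes, with medians of 0.10 and 0.44, and under total counts 6 rose and 3 fell in CKO and 5 rose and 5 fell in WT. Ccs, the copper chaperone of SOD1, averaged 0.195 ± 0.175 CPM in ovulated WT against 8.11 ± 1.41 CPM in GV WT oocytes, a change of −5.38 on the log2 scale (edgeR adjusted p = 1.19e-05), and 1.04 ± 0.629 CPM in ovulated CKO against 6.53 ± 2.14 CPM in GV CKO oocytes, a change of −2.64 (edgeR adjusted p = 0.00139). In the selenocysteine pathway, Pstk, the kinase of the selenocysteine tRNA, fell, at −2.05 in CKO and −3.12 in WT, as did Trit1, at −2.10 and −2.55, and the elongation factor gene Eefsec, at −1.51 and −1.48 (in CKO −0.89 under total counts, edgeR adjusted p = 0.0526), while Sephs2, which makes the selenium donor, rose by 1.61 in CKO and 1.90 in WT. NADPH-producing enzymes did not rise in the TMM-scaled fits. Of 10 tested 6 fell in CKO and 5 in WT oocytes, with medians of −1.14 and −0.93, and under total counts 1 rose in each genotype, 3 fell in CKO and 4 fell in WT. Besides G6pdx, Aldh1l1 fell, at −1.90 in CKO and −3.87 in WT, and averaged only 0.240 ± 0.0555 CPM in ovulated WT oocytes. Lower too were the mitochondrial malic enzyme gene Me2, at −1.28 and −1.37, and the folate enzyme gene Mthfd1, at −0.99 and −1.11. Under total counts Mthfd1 passed in neither genotype (−0.32 in CKO and −0.70 in WT, edgeR adjusted p = 0.414 and 0.064) and Me2 did not pass in CKO (−0.69, adjusted p = 0.0713). In CKO, Mthfd1 also did not pass without ovulated CKO replicate 3 (−0.81, adjusted p = 0.0525) or GV CKO replicate 4 (−0.66, adjusted p = 0.0808). Of the 7 genes of the list of other superoxide dismutases and glutathione peroxidases, 3 were tested and none passed, with Gpx3 closest in CKO (0.56, edgeR adjusted p = 0.107) and Gpx6 in WT (−0.55, edgeR adjusted p = 0.0525). Under total counts Gpx3 passed, higher in CKO.

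**Figure D5:**
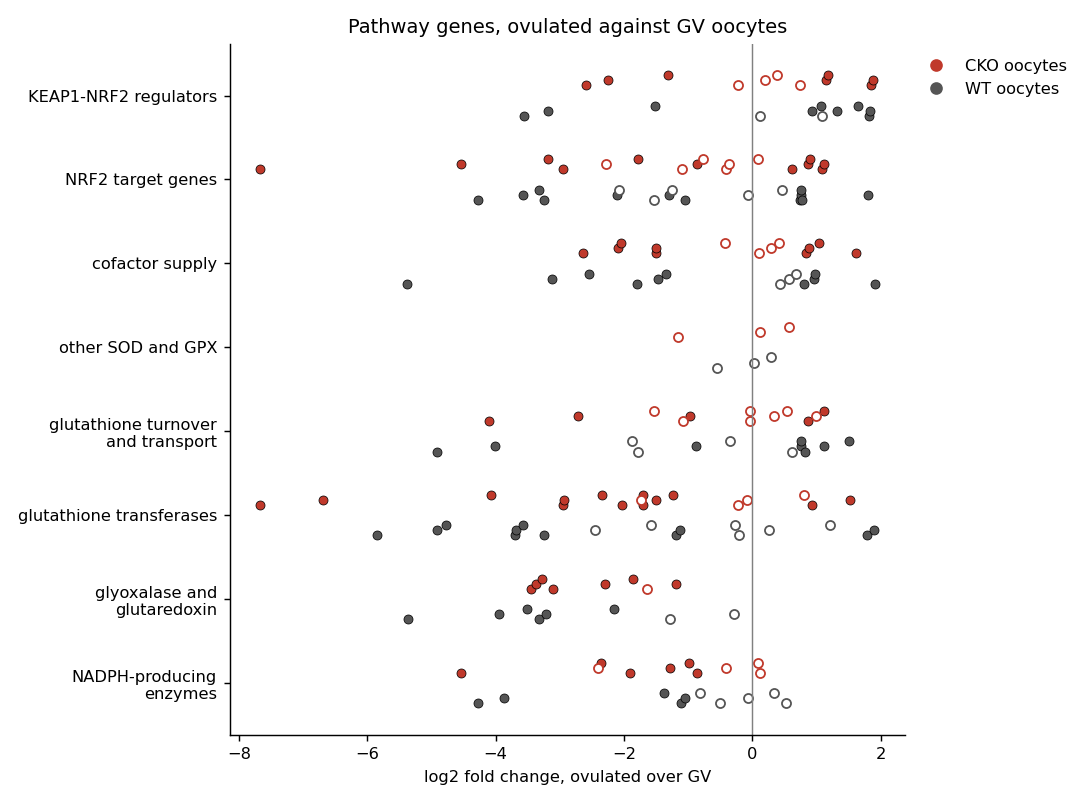
Log2 fold change of ovulated over GV oocytes for each tested gene of the 8 pathway lists, in CKO (upper) and WT oocytes (lower of each pair). Filled points passed an edgeR adjusted p of 0.05 and open points did not, and points are set at slightly different heights for legibility only. Glyoxalase and glutaredoxin genes lie to the left of 0 in both genotypes.

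Between the genotypes no gene of the 8 lists passed at either stage with all libraries. In GV oocytes edgeR called 0 of 79 tested and 7 had an unadjusted p under 0.05, and DESeq2 and limma-voom called 0. The smallest p-values by list were those of Gstp1 (1.18, edgeR adjusted p = 0.583), whose reads may be shared with its near copy Gstp2, the ferritin gene Ftl1 (0.97, adjusted p = 0.732), Eefsec (−0.62, adjusted p = 0.83), Rbx1 (0.41), Glrx5 (0.57), Ggct (0.46), Gpx3 (−0.55) and Me3 (1.48). In ovulated oocytes edgeR called 0 of 73 tested and 10 had an unadjusted p under 0.05, with 0 called by DESeq2 and limma-voom. The smallest p-values there were those of Gstm5 (1.44, edgeR adjusted p = 0.524), Gpx6 (0.81, adjusted p = 0.572), Glrx5 (1.73, adjusted p = 0.575), Ftl1 (1.82, adjusted p = 0.58), Atox1 (1.19, adjusted p = 0.615), Btrc (0.78), Ggct (−0.69) and Idh1 (−0.51). Without ovulated CKO replicate 3, Glrx5 alone of 76 tested genes passed (2.17, edgeR adjusted p = 0.0385). For the stage difference of the CKO effect edgeR called 0 of 84 tested and 11 had an unadjusted p under 0.05, with 0 called by DESeq2 and limma-voom. The smallest p-values were those of Ccs (2.74, edgeR adjusted p = 0.318), Gstk1 (1.99, adjusted p = 0.318), Aldh1l1 (1.97, adjusted p = 0.332), Ggct (−1.14, adjusted p = 0.394), Btrc (0.96), Nqo1 (−0.91), Gpx6 (0.66) and Hagh (2.00). Without ovulated CKO replicate 3, where 3.68% of 13521 genes passed, Ccs (3.17, edgeR adjusted p = 0.0303), Gstk1 (2.36, adjusted p = 0.0217), Aldh1l1 (2.39, adjusted p = 0.0116) and Hagh (2.58, adjusted p = 0.0216) passed among 88 tested.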

How the data were processed

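RNA was amplified from mouse oocytes with SMART-SeqII, per the labels' protocols, in 14 libraries grouped by the labels. For either stage the authors deposited expected counts (estimated counts per gene, not normalized, with 14.45% to 16.32% of values in a library fractional). Beside them stood FPKM values, deposited as already divided by gene length and sequencing depth. The genome build was mm10, per the submitters' processing notes, and the aligner, counter and use of strand are not given in the sources used here. Columns were matched to samples by name. Across genes, deviations of a library's log counts correlated with its own FPKM column at an r of at least 0.986 and with another's at no more than 0.567.

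Expected counts were rounded to whole counts. Genes were tested with edgeR 4.0.16 in R 4.3.3 (TMM scaling, genes kept by filterByExpr at min.count 10, quasi-likelihood F-test with the robust option, Benjamini-Hochberg adjustment over all genes tested, threshold 0.05). Genotypes were compared within a stage, and the stages and the difference of the CKO effects in a fit of all 14 libraries on genes listed in both tables. All 10 members passed the filter in each comparison. Standard errors and 95% intervals come from the same F-tests, and FPKM values served for levels and ratios only. Precision rests on 25086506 to 28471453 counts in a library, and reads without molecular identifiers can be PCR copies of 1 molecule, which counting error does not cover.

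The members and lists were chosen with earlier results of these data known, and the lists' medians are descriptions without a set test. All members are named; of each list and comparison up to 4 genes that passed are named by smallest p-value, so more over both genotypes, or otherwise the 1 with the smallest p-value, said not to pass. DESeq2 1.42.0, limma-voom (limma 3.58.1), RLE scaling, total counts, no filter, a replicate block, fits of other sets of libraries and leaving out each library were tried as alternatives. The edgeR fit was tested on simulated data with known changes, and the share of them recovered is not given here. Sequences are from RefSeq (GRCm38.p6) and GENCODE M21.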

Additional observations from a re-analysis of the deposited data

Results flagged for a closer look

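Among the 20 combinations of a member and a GV genotype, 1 held a library far from the others. Cat in GV CKO replicate 3 stood at 0.737 CPM on the scaling of the GV libraries, where the other 3 GV CKO libraries stood at 0.214 to 0.296 CPM. Its gap to the nearest of them is 0.843 of the group's range, beside a critical value of 0.829. Chance puts about 1 in 20 such groups past that value, and groups of 3 were not tested.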

How the results depend on the processing

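The stage calls of Sod1, Gpx4, Gss and Gclc kept their direction and passed in all 21 alternatives of each genotype, and no alternative called a member for genotype or for the stage difference except Sod1 in ovulated oocytes without CKO replicate 3. The counts of genes called for genotype in GV oocytes were 3 in edgeR and 39 in DESeq2, in ovulated oocytes 1 in edgeR, 101 in DESeq2 and 64 in the fit of all 14 libraries, and for the stage difference of the CKO effect 1 in edgeR, 65 in DESeq2 and 0 in limma-voom. Leaving out 1 library gave 3 to 6, 1 to 201 and 0 to 498 genes in these 3 comparisons, with 6 without GV CKO replicate 1 or 4, 3 in ovulated oocytes without WT replicate 3, and both 201 and 498 without ovulated CKO replicate 3. Members called in ovulated oocytes ranged from 0 to 1 in those fits. A group left with fewer libraries shared the spread estimated over all groups of its fit.

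The fit with the replicate number as a block left 3 genes in GV oocytes, 1 in ovulated oocytes, 0 for the stage difference, 6847 for the stages in CKO and 7850 in WT. Deviations of libraries with the same number correlated at −0.249, 0.196, 0.334 and 0.332 in GV and at −0.235, 0.261 and −0.0195 in ovulated oocytes. With so few libraries in a group, these values do not settle whether the numbers pair the libraries.

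Small, uncalled log2 fold changes changed sign. In GV oocytes Gclc (0.02) was −0.0839 with the replicate block, −0.0824 under total counts, −0.0519 in limma-voom and −0.401 to 0.217 with 1 library left out, and Nfe2l2 (−0.04) −0.245 to 0.195. In ovulated oocytes Gpx4 (−0.03) was 0.0114 in the fit of all 14 libraries, 0.0579 under total counts, 0.0489 in limma-voom and −0.639 to 0.356 with 1 library left out, where Gclc ranged from −0.104 to 0.371, Gclm from −0.00457 to 0.631 and Gpx1 from −0.0902 to 0.439. For the stage difference, Nfe2l2 (−0.14) was 0.154 under total counts and 0.0103 in limma-voom. With 1 library left out, it ranged from −0.343 to 0.0902, Cat from −0.864 to 0.0129, Gclc from −0.0730 to 0.603, Gclm from −0.538 to 0.114, Gpx4 from −0.466 to 0.557 and Gss from −0.748 to 0.00735. Between CKO stages, total counts gave 0.0153 for Gpx1, 0.0676 for Sod2 and 0.587 for Gsr, which was 0.166 with the replicate block and 0.0161 in limma-voom, and leaving out 1 library gave −0.267 to 0.402 for Gsr and −0.0821 to 0.798 for Cat. Under total counts Nfe2l2 passed in CKO (1.00, edgeR adjusted p = 0.0395) and Gclm in WT (0.94, edgeR adjusted p = 0.0415), as did, with 1 library left out, Gclm without ovulated WT replicate 1 (0.82, adjusted p = 0.025), Nfe2l2 in WT without GV CKO replicate 1 (0.63, adjusted p = 0.0492) and Sod2 in CKO without ovulated WT replicate 1 (−0.51, adjusted p = 0.0343). The cause of these changes was not tested. The low counts of Cat and Gss limit their precision.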
